A study of Mus musculus with 22 samples.

Results

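The 7 mouse genes of Hox paralog groups 8 and 9 were followed across 22 RNA-seq libraries: Hoxb8, Hoxc8 and Hoxd8 of group 8, and Hoxa9, Hoxb9, Hoxc9 and Hoxd9 of group 9. They were taken by gene symbol from 55141 genes in the tables, and each symbol matched 1 gene. The rule used no values, but the set was chosen with earlier results of these data known. The study asked what mouse embryonic stem (mES) cells that lack all Hox function do in culture and in embryo models. Wild-type (wt) and Hox-/- cells, the latter marked BADC in the library names, were sequenced as mES cells with 2 libraries per genotype, and as adherent cultures taken through an endoderm differentiation with 3 libraries per genotype. Gastruloids made with Activin A (wt and Hox-/-) or Chiron (wt alone) gave 2 libraries for each genotype at each of 2 ages, 96 h and 120 h. Gastruloids are aggregates of stem cells that form parts of the early embryo in culture.

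All lines grew before use in medium with LIF, CHIR99021 (a GSK-3 inhibitor, 3 µM) and PD0325901 (a MEK inhibitor, 1 µM), and the mES libraries come from that medium. Endoderm cultures received 100 ng/ml Activin A with 3 µM CHIR99021 at 24 h and at 72 h and were collected at 120 h. Doses for gastruloids are not in the labels. Neither are the clone and parental line of each genotype, and effects of the genotype and of the line used cannot be told apart. They do not say that the replicates of a group came from separate cultures, and the p-values then measure only the spread between these libraries, which may be technical. The labels call every culture other than mES cells a mix of cells, so in all comparisons of bulk RNA fewer cells of a type and less RNA per cell cannot be told apart.

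Hox genes encode homeodomain transcription factors that give cells of the trunk their position along the body axis. In mouse they lie in 4 clusters, and genes at the same place in each cluster form a paralog group. Genes at one end of a cluster are switched on early and reach far forward in the embryo, while those at the other end are switched on later and stay further back. Groups 8 and 9 lie in the more posterior part of the clusters and are known for patterning the thoracic region, its ribs and its motor neurons. Activin A drives nodal-type signalling and endoderm formation in gastruloids, and CHIR99021 activates Wnt signalling, which drives a posterior trunk.

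Library totals ran from 9.11 to 28.8 M counts, and in the gastruloids the 96 h libraries were the deeper ones (15 to 28.8 M against 9.11 to 11.9 M at 120 h). Levels are given as CPM, counts scaled by the library total. Single genes are compared with each other in FPKM, which also divides by transcript length. Sums over sets of genes are in CPM unless FPKM is named. Pluripotency markers (Pou5f1, Nanog, Sox2, Zfp42, Esrrb and Klf4) summed to 4092 to 4409 CPM in mES cells and to 537 to 617 CPM in wt endoderm cultures, against 178 to 198 CPM in Hox-/- endoderm cultures. Endoderm markers (Sox17, Foxa2, Cer1, Epcam, Gata6 and Foxa1) summed to 17.1 to 19.6 CPM in mES cells, 170 to 182 CPM in wt endoderm cultures and 462 to 514 CPM in wt Activin A gastruloids at 96 h. All 6 endoderm markers had counts in those differentiated groups.

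The 7 genes lie in all 4 clusters, and group 9 is the immediate neighbour of group 8 in 3 of them. In the mm10 build, Hoxb9 (ENSMUSG00000020875, chromosome 11, 96271457 to 96276595) is followed after 5309 bases by Hoxb8 (ENSMUSG00000056648, 96281905 to 96285315). On chromosome 15, Hoxc9 (ENSMUSG00000036139, 102976439 to 102985099) and Hoxc8 (ENSMUSG00000001657, 102990607 to 102993821) are 5507 bases apart. On chromosome 2, Hoxd9 (ENSMUSG00000043342, 74697727 to 74700208) and Hoxd8 (ENSMUSG00000027102, 74704615 to 74707933) are 4406 bases apart, with the gene model Gm44463 between them. Hoxa9 (ENSMUSG00000038227, chromosome 6, 52223100 to 52227370) is the one gene of the 7 on the minus strand, and its cluster has no group 8 gene. Hoxd8 lies inside the span of the antisense gene Hoxd3os1 (chromosome 2, 74703248 to 74716130). Hoxd3os1 was at 5.07 CPM or less in every group mean, and because the strand setting of the counting is not given, reads of this pair cannot be assigned with certainty.

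Promoter sequences from RefSeq (GRCm38.p6) matched 4 of the 7 genes: Hoxb8, Hoxd8, Hoxa9 and Hoxd9. The 250 bases before the start of Hoxb8 and of Hoxa9 are shown because Hoxa9 rose between the times in Chiron gastruloids and Hoxb8 did not, as described further on. Hoxb8 is at chr11:96281655-96281904 on the plus strand and Hoxa9 at chr6:52227371-52227620 on the minus strand. Capitals mark matches on either strand to TTTATNG, the core letters of sites bound by the caudal-related Cdx factors.
Hoxb8: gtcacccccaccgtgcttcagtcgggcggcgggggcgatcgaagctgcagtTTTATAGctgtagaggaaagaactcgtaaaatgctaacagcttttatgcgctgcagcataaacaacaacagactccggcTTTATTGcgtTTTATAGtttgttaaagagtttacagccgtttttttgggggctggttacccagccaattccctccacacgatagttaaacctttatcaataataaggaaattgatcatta
Hoxa9: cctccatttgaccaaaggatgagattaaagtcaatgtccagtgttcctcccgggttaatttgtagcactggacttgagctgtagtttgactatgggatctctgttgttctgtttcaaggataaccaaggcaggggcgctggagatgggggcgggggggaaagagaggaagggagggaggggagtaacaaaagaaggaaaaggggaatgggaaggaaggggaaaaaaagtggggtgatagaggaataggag
The Hoxb8 window held 3 matches, none overlapping another, and the windows of Hoxa9, Hoxd8 and Hoxd9 held none. Of the genes without a match, Hoxa9 and Hoxd8 rose between the times in Chiron gastruloids, and Hoxd9 did not pass the test. A link between the matches, or other features of these windows, and the change with time was not tested. Of 32841 mouse promoter windows of the same length, 9.81% held at least 1 match. The letters TGATTNAT, a core of sites that Hox proteins bind together with Pbx proteins, were in none of the 4 windows, and 2.83% of all windows held them. The Hoxb8 window had 12 CG dinucleotides and the Hoxa9 window 3, beside a median of 6 over all windows. For Hoxa9 the window lies before the start at 52227370, while the GENCODE M21 annotation extends the gene upstream to 52231089. The sequence before that further start was not examined.

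In wt cells 3 genes were highest in Chiron gastruloids at 96 h, 2 in Chiron gastruloids at 120 h and 2 in endoderm cultures. Hoxb8, which acts in blood progenitors and in the spinal cord, was highest in Chiron gastruloids at 96 h, with 156 and 153 CPM, and was at 137 and 139 CPM at 120 h. In Activin A gastruloids it was at 3.38 and 2.95 CPM at 96 h and at 62.2 and 56 CPM at 120 h. Endoderm cultures held 17.8, 17.6 and 19.5 CPM, and mES cells 0.199 and 0.0777 CPM, from 4 counts in all. These 6 wt groups were separate at every step of that order.

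Hoxc8, which takes part in motor neuron identity and rib patterning, kept the same order of wt groups. It was at 86.9 and 88.7 CPM in Chiron gastruloids at 96 h and at 68.2 and 74.5 CPM at 120 h. Activin A gastruloids held 39.8 and 40.8 CPM at 120 h but 0.444 and 0.426 CPM at 96 h, from 21 counts. Endoderm cultures lay between those, at 10.7, 8.84 and 8.61 CPM. In mES cells Hoxc8 had a single count in 1 of the 2 wt libraries.

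Hoxb9, which acts with the other group 9 genes in the thoracic skeleton, had the same leading groups and a level of its own in mES cells. Chiron gastruloids held 252 and 247 CPM at 96 h and 238 and 235 CPM at 120 h. Activin A gastruloids rose from 3.87 and 3.53 CPM to 84.2 and 78.7 CPM over the same times, and endoderm cultures were at 31.1, 27.1 and 27 CPM. In mES cells Hoxb9 was at 6.37 and 6.06 CPM, from 174 counts, above both Activin A libraries of 96 h. The 6 other genes were each at 0.863 CPM or less in every wt mES library. The library values of all 7 genes are drawn on a log axis, where the Hox-/- libraries lie at or near the foot.

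**Figure D1:**
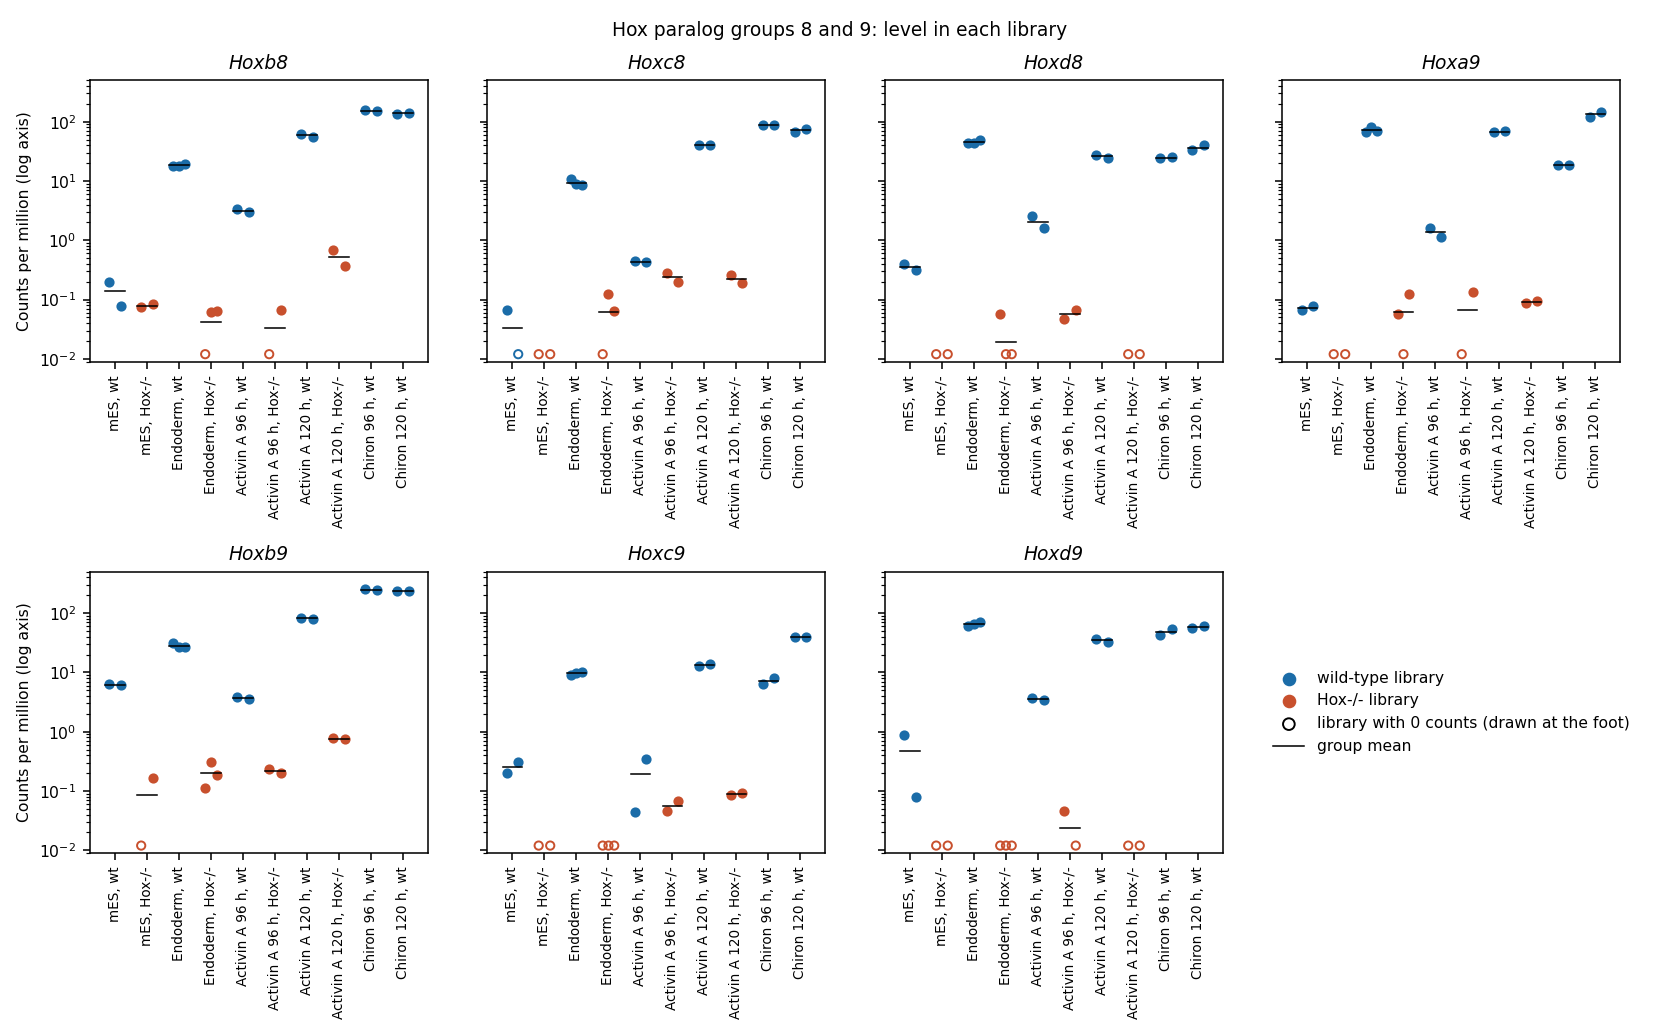
Level of each of the 7 genes (CPM, log axis) in each of the 22 libraries, by group; filled points are libraries, open points at the foot are libraries with 0 counts, and lines are group means. Blue wt points lie between 9.38 and 236 CPM on average in endoderm cultures, Chiron gastruloids at 120 h and Activin A gastruloids at 120 h, while no red Hox-/- group mean is above 0.762 CPM.

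Hoxd8 and Hoxd9, neighbours in the cluster known for roles in limbs and the posterior trunk, were at their highest in wt endoderm cultures. Hoxd8 was at 44.5, 44.5 and 48.3 CPM there, above the 32.9 and 40 CPM of Chiron gastruloids at 120 h. Its levels in Activin A gastruloids at 120 h (27.7 and 24.8 CPM) and in Chiron gastruloids at 96 h (24 and 25.8 CPM) overlapped. Hoxd9 was at 61, 64.8 and 71.8 CPM in endoderm cultures, which overlapped the 56.1 and 61.7 CPM of Chiron gastruloids at 120 h. It was at 42.8 and 54.1 CPM in Chiron gastruloids at 96 h and at 36.3 and 33.2 CPM in Activin A gastruloids at 120 h. Both genes were low in Activin A gastruloids at 96 h, with 2.53 and 1.59 CPM for Hoxd8 and 3.69 and 3.49 CPM for Hoxd9. In mES cells Hoxd9 differed between the libraries, with 0.863 and 0.0777 CPM from 14 counts, and Hoxd8 had 10 counts.

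Hoxa9 and Hoxc9 were at their highest in Chiron gastruloids at 120 h. Hoxa9, a regulator of blood progenitors known from leukaemia, was at 119 and 146 CPM there and at 18.9 and 18.8 CPM at 96 h. Endoderm cultures (67.1, 81.8 and 68.6 CPM) and Activin A gastruloids at 120 h (67.2 and 69.2 CPM) overlapped, and Activin A gastruloids at 96 h held 1.64 and 1.12 CPM. Hoxc9, which sets thoracic motor neuron identity, was at 39.2 and 39.3 CPM in Chiron gastruloids at 120 h and at 6.28 and 7.91 CPM at 96 h. Activin A gastruloids at 120 h held 13 and 13.6 CPM and endoderm cultures 9.09, 9.76 and 10.3 CPM. In Activin A gastruloids at 96 h Hoxc9 had 10 counts, at 0.0444 and 0.349 CPM, which overlapped mES cells (0.199 and 0.311 CPM).

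Levels were set side by side between genes on the FPKM scale, and the make-up of the 7 genes differed between the cultures. FPKM tables were normalized separately by the authors, so shares within a library are given. In wt endoderm libraries the Hoxd pair made up 44.6 to 49.1% of the summed FPKM of the 7 genes, Hoxa9 20.7 to 31.4%, the Hoxb pair 16.2 to 20.3% and the Hoxc pair 7.33 to 9.92%. In Chiron libraries at 96 h the Hoxb pair made up 63.4 and 65.8%, the Hoxc pair 19.8 and 20.1%, the Hoxd pair 12.2 and 14.3% and Hoxa9 2.15 and 2.2%. By 120 h in Chiron libraries the Hoxb share was 51.8 and 54.8% and that of Hoxa9 12.8 and 14.4%. Activin A libraries held a Hoxd share of 41 and 42.6% at 96 h and of 19.6 and 22.1% at 120 h, beside a Hoxb share of 45.2 and 46.4% and then 40 and 43.4%. In mES cells, where the sum was 3.72 and 3.09 FPKM, the Hoxb pair made up 77.1 and 91%. The FPKM of Hoxa9 differed between replicates by more than its CPM, with 19.5, 33.3 and 32.1 FPKM in endoderm cultures and 17.4 and 25.5 FPKM in Activin A gastruloids at 120 h, so its share is the least certain.

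**Figure D2:**
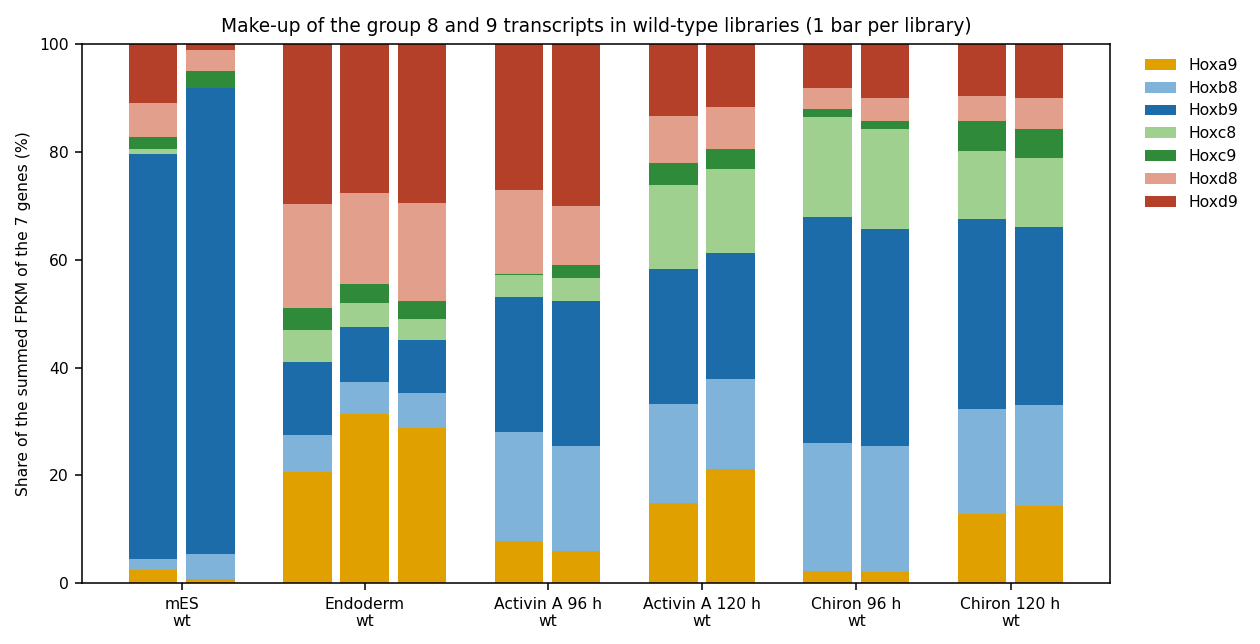
Share of each gene in the summed FPKM of the 7 genes (%), with 1 stacked bar per wt library, in the order mES cells, endoderm cultures, Activin A gastruloids and Chiron gastruloids. The red Hoxd segments together take 44.6 to 49.1% of each endoderm bar, and the blue Hoxb segments 63.4 and 65.8% of the Chiron bars at 96 h.

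Within a cluster, the group 9 gene and the group 8 gene beside it kept a narrow range of ratios in the Hoxb and Hoxd clusters and a wide one in the Hoxc cluster. The FPKM ratio of Hoxb9 to Hoxb8 was between 1.24 and 1.96 in all 11 wt libraries outside mES cells, and that of Hoxd9 to Hoxd8 between 1.52 and 2.75. The ratio of Hoxc9 to Hoxc8 was 0.0725 and 0.0811 in Chiron libraries at 96 h and 0.433 and 0.415 at 120 h. It was 0.261 and 0.238 in Activin A libraries at 120 h and 0.68, 0.771 and 0.84 in endoderm libraries. At 96 h in Activin A libraries it was 0.0771 and 0.561, where both genes had few counts. Over the 10 group means of log2(CPM + 1), the Pearson correlation between members ran from 0.897 for Hoxa9 with Hoxb9 to 0.998 for Hoxd8 with Hoxd9. These values are a description of 10 points that share libraries and are spread between groups with and without the genes.

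Between 96 h and 120 h, all 7 genes rose in wt Activin A gastruloids, from a sum of 14.5 ± 1.52 to 323 ± 9.92 CPM (SD, n = 2 each). Each gene's libraries were separate between the times. A gene is called here at an adjusted p under 0.05 in edgeR's quasi-likelihood test with Benjamini-Hochberg adjustment over all genes tested. The SE given with a log2 change is the absolute change divided by the square root of the F statistic of that test. It is not reliable for changes close to none or for groups with few counts. Of all genes tested, 37.2% were called higher at 120 h, and the median log2 change was 4.39 over the 7 genes and 0.00 over all genes. Hoxc8 rose 86.4-fold (log2 change 6.43, SE 0.175, adjusted p 1.6e-34 by edgeR) and Hoxc9 58.8-fold (5.88, SE 0.295, adjusted p 2.13e-23 by edgeR). The value of Hoxc9 rests on 1 and 9 counts in the libraries of 96 h, and its log2 change was 5.14 without replicate 1 of that group and 7.88 without replicate 2, so its place in the order of the 7 genes is not fixed. Hoxa9 rose 47.1-fold, Hoxb9 20.9-fold, Hoxb8 17.8-fold and Hoxd8 12.2-fold. The smallest rise was that of Hoxd9, at 9.19-fold (3.20, SE 0.127, adjusted p 2.82e-27 by edgeR). Their share of the CPM of all 39 Hox genes went from 2.15 and 2.36% at 96 h to 27.1 and 27.8% at 120 h. In FPKM that share was 1.71 and 1.83% at 96 h, and 22 and 22.7% at 120 h. The FPKM base of this share is uncertain. Hoxa7 was at 0 FPKM in both wt Activin A libraries of 96 h, which held 122 and 112 counts of it. At 120 h Hoxb7 was at 27.2 and 25 FPKM from 5.51 and 4.94 CPM.

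In Chiron gastruloids the same interval moved the 7 genes in different directions around a sum of 591 ± 6.31 CPM at 96 h and 713 ± 31.4 CPM at 120 h (SD, n = 2 each). By edgeR, 3 genes rose, beside 28.5% of all genes called higher, and 3 fell, beside 33.2% called lower. Hoxa9 rose 6.5-fold (log2 change 2.70, SE 0.083, adjusted p 4.5e-18 by edgeR) and Hoxc9 5.07-fold (2.34, SE 0.123, adjusted p 8.56e-14 by edgeR). Hoxd8 rose 1.35-fold (0.43, SE 0.0999, adjusted p 0.000719 by edgeR), a call that was lost without replicate 2 of the 120 h group (0.29, adjusted p 0.0521 by edgeR). The genes that fell did so slightly, Hoxc8 with a log2 change of -0.41 (SE 0.0615), Hoxb8 with -0.27 (SE 0.0544) and Hoxb9 with -0.18 (SE 0.0485). In limma on the authors' FPKM the call of Hoxb8 was lost with a pseudocount of 0.1 (-0.22, adjusted p 0.073), and that of Hoxd8 with either pseudocount (adjusted p 0.0844 and 0.187). Hoxd9 did not pass the test (0.16, SE 0.0863, adjusted p 0.107 by edgeR), and was called higher without replicate 2 of the 96 h group (0.38, adjusted p 9.39e-05 by edgeR). With library totals alone as the scaling, Hoxb9 (-0.08) was not called and Hoxd9 (0.27) was, which gives 4 genes higher and 2 lower. Depth and time went together in these libraries, and the part of depth was not tested.

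**Figure D3:**
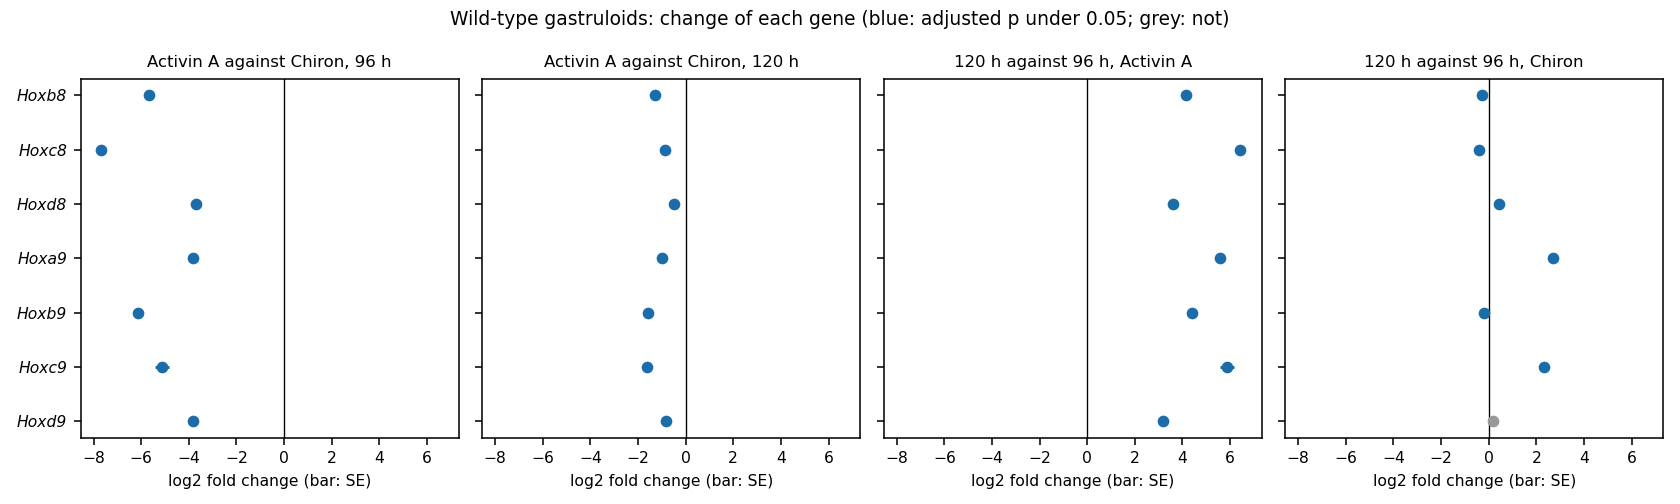
Log2 fold change of each gene (points; bars are SE) in 4 comparisons of wt gastruloids: Activin A against Chiron at 96 h and at 120 h, and 120 h against 96 h under each treatment. Points to the left of 0 are lower in Activin A or at 120 h; the 7 points run from -7.70 to -3.68 for Activin A against Chiron at 96 h and from -1.61 to -0.51 at 120 h.

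Activin A gastruloids had less of all 7 genes than Chiron gastruloids at both times, and the gap was far wider at 96 h. At 96 h the sum in Activin A was 2.46% of that in Chiron, and all 7 genes were called lower, beside 30.2% of all genes. Hoxc8 was 208-fold lower (log2 change -7.70, SE 0.123, adjusted p 9.53e-24 by edgeR), Hoxb9 70.6-fold, Hoxb8 51.1-fold and Hoxc9 35.1-fold. For Hoxc9 the log2 change of -5.13 became -4.36 without Activin A replicate 1 and -7.13 without replicate 2. The other 3 genes, Hoxa9, Hoxd9 and Hoxd8, were 14.3-fold, 14.2-fold and 12.8-fold lower. At 120 h the sum in Activin A was 45.4% of that in Chiron, and again all 7 genes were called lower, beside 21.6% of all genes. Hoxc9 and Hoxb9 then differed most, 3.06-fold and 3.01-fold, and Hoxd8 least, 1.43-fold (-0.51, SE 0.113, adjusted p 0.000771 by edgeR). In limma on the authors' FPKM the call of Hoxd8 at 120 h was lost with either pseudocount (adjusted p 0.09 and 0.197), and that of Hoxa9 with a pseudocount of 0.1 (adjusted p 0.08).

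The change of that gap with time was tested directly, as the difference between the treatment effects at 120 h and at 96 h. It was called for all 7 genes with a positive sign, beside 21.7% of all genes with that sign. It was largest for Hoxc8 (log2 difference 6.83, SE 0.17, adjusted p 3.9e-19 by edgeR), followed by Hoxb9 (4.55) and Hoxb8 (4.40). Hoxc9 had 3.52 (2.77 and 5.54 without Activin A replicate 1 or 2 of 96 h), Hoxd8 3.16, Hoxd9 3.02 and Hoxa9 2.84. This test and the comparisons over time and between treatments share the wt Activin A libraries of 96 h. Counts of markers are to be read beside all 17305 genes tested. Of those, 10655 were called at 96 h, 5233 of them lower in Activin A, and 7249 at 120 h, 3736 of them lower. Endoderm markers were higher in Activin A than in Chiron libraries for 6 of 6 at both times, and summed to 462 to 514 against 57.6 to 83 CPM at 96 h. Markers of presomitic and somitic mesoderm (Tbx6, Msgn1, Mesp2, Meox1, Uncx and Lfng) were lower for 6 of 6 at 96 h, at 128 to 135 against 668 to 780 CPM, and for 5 of 6 at 120 h, at 366 to 374 against 727 to 770 CPM. Caudal progenitor markers were split, with 2 of 5 higher and 3 lower at 96 h (2535 to 2653 against 1361 to 1589 CPM) and 1 higher and 4 lower at 120 h (468 to 476 against 562 to 615 CPM). Pluripotency markers were higher for 2 and lower for 3 of 6 at 96 h (975 to 994 against 180 to 231 CPM), and lower for 5 of 6 at 120 h (84.7 to 87.2 against 175 to 189 CPM). None of the markers of these 4 lists was at 0 in the 4 groups. In the smaller lists, neural markers were lower for 4 of 5 at 96 h (8.91 to 8.93 against 13.5 to 14.3 CPM, with Olig2 at 0 under Activin A) and higher for 2 of 5 at 120 h (55.5 to 57.9 against 27.9 to 28 CPM). At 120 h 3 of 4 tested endothelial and blood markers (30.4 to 38.3 against 5.36 to 5.94 CPM, with Gata1 at 0 under Chiron) and 3 of 4 cardiac markers (5.38 to 5.95 against 1.84 to 2.01 CPM) were higher, where at 96 h 2 and 1 were higher and 1 of each was lower. The part of the makeup of the cultures in the gap was not tested.

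Endoderm cultures had more of all 7 genes than mES cells in wt, with sums of 250 ± 7.49 (SD, n = 3) and 7.54 ± 0.883 CPM (SD, n = 2). All 7 genes were called higher by edgeR, beside 41.6% of all genes tested. The median log2 change was 6.85 over the 7 genes and 0.07 over all genes. Hoxa9 went from 2 to 3008 counts, a ratio of 1019 with a 95% counting interval of 282 to 8422. Hoxd8 was 115-fold higher (log2 change 6.85, SE 0.198) and Hoxc9 34.6-fold. Hoxd9 was 119-fold higher (6.90, SE 0.239), but 13 of its 14 mES counts were in wt replicate 1, and the log2 change was 9.48 without that library and 6.11 without replicate 2. Hoxb8 was 111-fold higher from 4 mES counts (6.80, and 7.63 without wt mES replicate 1). Hoxc8 went from 1 to 384 counts, a ratio of 260 with an interval of 46.4 to 10308 (fitted log2 change 7.62, and 10.04 and 6.85 without wt mES replicate 1 or 2). The smallest change was that of Hoxb9, which already had a level in mES cells, at 4.19-fold (2.07, SE 0.134, adjusted p 1.63e-11 by edgeR). In Hox-/- cells no member was called between the same cultures, beside 42.7% of all genes called higher and 37.9% lower. At an unadjusted p under 0.05 the number was also 0, by DESeq2 it was 0 adjusted, and no member had more than 10 counts in either group.

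In Hox-/- cells RNA of the 7 genes was at or close to 0 in every culture. These cells lack all Hox function by design, and the 7 genes are Hox genes. Lower calls between genotypes thus follow from how the line is defined. The calls and folds below describe how little RNA was left and are no separate finding. Their sum was 0.0747 and 0.252 CPM in the mES libraries, 0.227 to 0.492 CPM in endoderm cultures, 0.655 and 0.736 CPM in Activin A gastruloids at 96 h and 1.5 and 1.9 CPM at 120 h. As a percentage of wt these sums were 2.17% in mES cells, 0.155% in endoderm cultures, 4.79% at 96 h and 0.525% at 120 h. In mES cells the value ran from 0.991% when Hox-/- replicate 2 was left out to 3.34% when Hox-/- replicate 1 was left out. Where a group held 0 counts, a fold is a lower bound computed with 3 counts over the group, and where it held 1 to 3 counts the ratio of summed counts per total is given with its exact 95% interval. Bounds and intervals cover counting error only.

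In mES cells the level of Hoxb9 was the one that could be tested, since the other 6 genes did not pass the filter on low counts. It fell from 174 counts in wt to 2 in Hox-/-, a ratio of 78.8 with an interval of 21.5 to 656 (adjusted p 6.42e-13 by edgeR), beside 10.8% of all genes called lower. With 1 library of the mutant left out, its fitted log2 change of -6.14 became -5.14 (replicate 1 out) or -9.43 (replicate 2 out). Hoxd9 had 14 counts in wt and 0 in Hox-/- and was at least 4.23-fold lower, a bound that rests on the 13 counts of wt replicate 1, since the other wt library held 1. Hoxd8 (10 and 0 counts) was at least 3.02-fold lower and Hoxc9 (7 and 0 counts) at least 2.11-fold lower. Hoxb8 had 4 counts in wt and 2 in Hox-/-, and the low counts of Hoxb8, Hoxc8 and Hoxa9 do not show a difference at this depth.

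In endoderm cultures all 7 genes were lower in Hox-/-, beside 23.1% of all genes called lower. Hoxd9, at 61 to 71.8 CPM in wt, had 0 counts in the 3 Hox-/- libraries and was at least 1094-fold lower. Hoxc9 also had 0 counts there and was at least 161-fold lower. Hoxd8 had 1 count against 1885, a ratio of 2276 with an interval of 408 to 89925. Hoxa9 had 3 counts against 3008, a ratio of 1210 with an interval of 414 to 5873. With the Hox-/- library that held most of these counts left out, the fitted log2 changes moved from -10.65 to -12.39 for Hoxd8 (replicate 1), from -10.04 to -10.90 for Hoxa9 (replicate 3) and from -7.08 to -7.92 for Hoxc8 (replicate 2), and all were called. For Hoxb8 (2 against 753 counts) the ratio was 454, and for Hoxc8 (3 against 384 counts) it was 155, with intervals of 125 to 3760 and 52.5 to 753. Hoxb9 kept the most counts, 10 against 1164, and was 135-fold lower (log2 change -7.07, SE 0.193, adjusted p 2.44e-12 by edgeR). For each of the 7 genes the ratio or bound was 135 or more. The median log2 change of the 7 genes was -8.55 with groups of 0 counts set at their bound, beside 0.00 over all genes.

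In the same endoderm comparison the markers of cell types moved too, beside 23.1% of all genes called higher and 23.1% called lower. Endoderm markers were lower in Hox-/- for 6 of 6, with sums of 88.9 to 89.6 against 170 to 182 CPM. Caudal progenitor markers (T, Nkx1-2, Fgf17, Cdx2 and Wnt3a) were higher for 5 of 5, at 535 to 580 against 315 to 337 CPM. Pluripotency markers were lower for 6 of 6, at 178 to 198 against 537 to 617 CPM. Of the 5 neural markers (Sox1, Pax6, Olig2, Nkx6-1 and Tubb3) 2 could be tested and both were higher, with list sums of 38 to 47.6 against 6 to 7.15 CPM. Markers were lower for 3 of 4 tested in presomitic and somitic mesoderm (33 to 36 against 53.1 to 60.8 CPM), 2 of 3 in endothelium and blood (8.13 to 10.1 against 18.5 to 19.9 CPM) and 2 of 3 in heart (4.09 to 4.28 against 6 to 8.75 CPM), and 1 presomitic marker was higher. Olig2 was at 0 in both genotypes and Gata1 in Hox-/-, and the part of these cell types in the levels of the 7 genes was not tested.

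In Activin A gastruloids at 96 h, where wt levels were low, 5 of the 7 genes were called lower in Hox-/-, beside 16.7% of all genes. Hoxd9 had 1 count against 173, a ratio of 130 with an interval of 23 to 5169, and Hoxb8 had 1 against 152, a ratio of 114 with an interval of 20.2 to 4545. Hoxd8 (2 against 98 counts) had a ratio of 36.9, with an interval of 9.94 to 309, and Hoxa9 (2 against 66 counts) a ratio of 24.8, with an interval of 6.61 to 209. Without Hox-/- replicate 1 or 2 the fitted log2 changes were -5.34 and -8.63 for Hoxb8, -3.22 and -7.44 for Hoxa9 and -8.74 and -5.99 for Hoxd9, and all were called. Hoxb9 was 15.6-fold lower, at 8 against 178 counts (log2 change -3.97, SE 0.328, adjusted p 1.64e-14 by edgeR). In limma on the authors' FPKM the call of Hoxa9 was lost (adjusted p 0.194 with a pseudocount of 1). Hoxc8 and Hoxc9 were not called by edgeR. Hoxc8 was at 0.281 and 0.201 CPM in Hox-/- and at 0.444 and 0.426 CPM in wt (-0.74, SE 0.53, adjusted p 0.282 by edgeR). Hoxc9 had 2 against 10 counts, a ratio of 3.76 with an interval of 0.802 to 35.3 (adjusted p 0.154 by edgeR). Without wt replicate 1 Hoxc9 was called (log2 change -2.44, adjusted p 0.0347 by edgeR), and without wt replicate 2 the sign changed (0.31).

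At 120 h all 7 genes were called lower in Hox-/- Activin A gastruloids, beside 25.5% of all genes. Hoxd9 and Hoxd8 had 0 counts in both Hox-/- libraries and were at least 258-fold and at least 195-fold lower. Hoxa9 had 2 counts against 1252, a ratio of 760 with an interval of 210 to 6284, and Hoxc9 had 2 against 244, a ratio of 148 with an interval of 40.6 to 1230. Hoxc8 was 161-fold lower (5 against 740 counts; log2 change -7.33, SE 0.245, adjusted p 3.08e-30 by edgeR). The Hoxb genes kept the most counts, with 12 against 1085 for Hoxb8 and 17 against 1496 for Hoxb9, which is 100-fold and 97.9-fold lower. The median log2 change of the 7 genes was -7.33, beside -0.02 over all genes.

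The residual counts of the Hoxb genes in Hox-/- gastruloids were higher at 120 h than at 96 h. Hoxb8 went from 0 and 0.0669 CPM to 0.69 and 0.374 CPM, that is from 1 to 12 counts, a ratio of 19.6 with an interval of 2.89 to 836 (log2 change 3.94, adjusted p 0.00035 by edgeR; 2.85 and 6.13 without replicate 1 or 2 of 96 h). Hoxb9 went from 0.234 and 0.201 CPM to 0.776 and 0.748 CPM (3.34-fold, log2 change 1.74, SE 0.562, adjusted p 0.00529 by edgeR). These were 2 of the 7 genes tested, beside 34.9% of all genes called higher, and in limma on the authors' FPKM only 1 of the 7 was called. Hoxc8 stayed at 0.281 and 0.201 CPM and then 0.259 and 0.187 CPM, and the other 4 genes had 2 counts or fewer at each time.

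The genotype effect in Activin A gastruloids changed between 96 h and 120 h for 5 of the 7 genes, with a negative sign, beside 20.2% of all genes called with that sign. This contrast is the change over time in Hox-/- minus that in wt. Hox-/- counts were low at both times, so it is not independent of the wt rise and is no separate result. For Hoxc8 the log2 change over time was 6.43 in wt and -0.15 in Hox-/-. The log2 difference was -6.59 for Hoxc8 (SE 0.895, adjusted p 3.74e-08 by edgeR), -2.65 for Hoxb9 (SE 0.707, adjusted p 0.00218 by edgeR), -4.94 for Hoxa9, -5.26 for Hoxc9 and -6.63 for Hoxd8. Values for genes whose Hox-/- groups hold 0 to 3 counts, here Hoxa9, Hoxc9 and Hoxd8, depend on the prior count of the fit and give no bound. Hoxd9 (-5.39, SE 2.75, adjusted p 0.119 by edgeR) and Hoxb8 (-0.22, SE 2.78, adjusted p 0.968 by edgeR) did not pass. The SE of both rests on Hox-/- groups with few counts and is no measure of precision. In limma on the authors' FPKM with a pseudocount of 1, all 7 genes were called, Hoxb8 with -3.15 (adjusted p 0.000399 by limma) and Hoxd9 with -2.62 (adjusted p 0.000125 by limma), and all 7 also with a pseudocount of 0.1. By edgeR without Hox-/- replicate 1 of 96 h, Hoxc8 and Hoxa9 were the 2 genes called, and Hoxb9 was not (-2.52, adjusted p 0.0693 by edgeR). Without Hox-/- replicate 2 of 96 h, Hoxc8 and Hoxb9 were the 2 called, and Hoxa9 was not (-1.90, adjusted p 0.862 by edgeR). The call of Hoxc9 was lost in both of these fits, and that of Hoxd8 without any 1 of the 4 Hox-/- libraries (adjusted p 0.0564 to 0.0732 by edgeR). Endoderm markers were lower in Hox-/- gastruloids for 5 of 6 at both times, at 138 to 144 against 462 to 514 CPM at 96 h and at 50.7 to 54.4 against 351 to 358 CPM at 120 h, with no marker at 0. Caudal progenitor markers were higher for 5 of 5 at 96 h (3419 to 3470 against 2535 to 2653 CPM), and for 4 of 5 with 1 lower at 120 h, where the sums overlapped (461 to 476 against 468 to 476 CPM). Markers of presomitic and somitic mesoderm were higher for 1 and lower for 2 of 6 at 96 h (150 to 166 against 128 to 135 CPM), and higher for 5 of 6 at 120 h (761 to 765 against 366 to 374 CPM). Neural markers were higher for 1 and lower for 1 of 5 at 96 h (10.4 to 11.4 against 8.91 to 8.93 CPM, with Olig2 at 0 in wt), and higher for 1 and lower for 4 at 120 h (15.8 to 17.8 against 55.5 to 57.9 CPM). The other lists also moved at 120 h. Cardiac markers were lower for 1 of 4 at 96 h (0.602 to 0.842 against 1.2 to 1.71 CPM) and 3 of 4 at 120 h (1.47 to 1.78 against 5.38 to 5.95 CPM). Endothelial and blood markers were lower for 1 of 4 tested at 96 h (4.75 to 4.82 against 5.89 to 7.24 CPM) and higher for 3 of 4 at 120 h (56.1 to 56.5 against 30.4 to 38.3 CPM). Pluripotency markers were lower for 4 and higher for 1 of 6 at both times, at 907 to 923 against 975 to 994 CPM and then 32.5 to 36 against 84.7 to 87.2 CPM. Of all genes tested, 22.2% were called higher and 16.7% lower in Hox-/- at 96 h, and 24.9% and 25.5% at 120 h. The part of these cell types in the levels of the 7 genes was not tested.

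Hox genes on either side of groups 8 and 9 were summed in the same way in wt cultures. The 8 genes of groups 5 to 7 summed to 28.6 ± 2.24 CPM in Activin A gastruloids at 96 h, above the 14.5 ± 1.52 CPM of groups 8 and 9, and the 8 genes of groups 10 to 12 to 0.452 ± 0.0734 CPM (SD, n = 2). In the other 5 wt groups the sum of groups 8 and 9 exceeded that of groups 5 to 7. These sums are not divided by transcript length, so they order the sets by counts, and the order may differ in FPKM. In wt Activin A gastruloids at 120 h, Hoxb7 was at 5.23 CPM and 26.1 FPKM, and Hoxb9 at 81.5 CPM and 28.7 FPKM. In wt endoderm cultures, however, Hoxb7 was at 5.19 CPM and 5.97 FPKM. Division by a fixed length would give like ratios in both cultures, so the FPKM of Hoxb7 is uncertain and does not settle the order. In endoderm cultures groups 8 and 9 (250 ± 7.49 CPM) and groups 10 to 12 (246 ± 12.7 CPM, SD, n = 3) differed by less than the spread between replicates. In Chiron gastruloids groups 10 to 12 went from 1.67 ± 0.11 CPM at 96 h to 70.3 ± 4.21 CPM at 120 h, and groups 5 to 7 from 193 ± 0.167 to 333 ± 13.7 CPM (SD, n = 2 each). At 96 h the Activin A sum was 14.8% of the Chiron sum for groups 5 to 7 and 27% for groups 10 to 12, beside 2.46% for groups 8 and 9. The difference between these percentages was not tested and that of groups 10 to 12 rests on sums of 0.452 and 1.67 CPM.

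**Figure D4:**
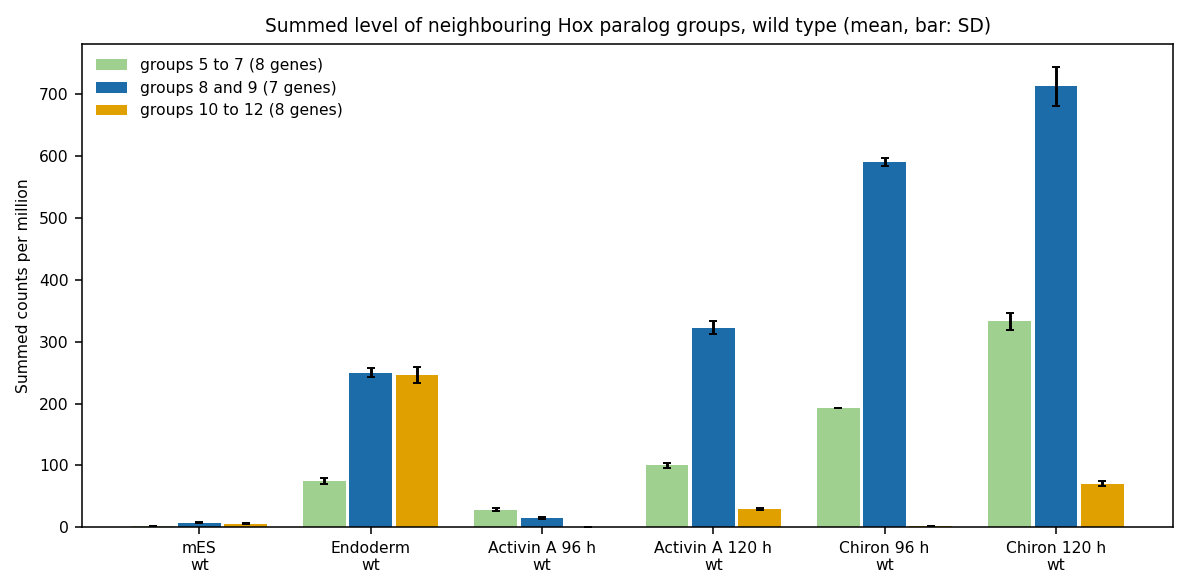
Summed CPM (mean; bars are SD) of Hox groups 5 to 7, groups 8 and 9, and groups 10 to 12 in the 6 wt groups. Groups 8 and 9 hold the tallest of the 3 bars in all gastruloid groups except Activin A at 96 h, where groups 5 to 7 (28.6 CPM) exceed them (14.5 CPM). CPM is not divided by transcript length, so the bars rank the sets by counts only.

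Hoxa7, beside Hoxa9 in a cluster with no group 8 gene, was at 49.1 ± 1.14 CPM in Chiron gastruloids at 96 h and 112 ± 4.63 CPM at 120 h, and Hoxb7 at 15.2 ± 2.59 and 26 ± 1.45 CPM (SD, n = 2 each). The group 10 genes were near 0 in Chiron gastruloids at 96 h, with 0.955 ± 0.0258 CPM for Hoxa10, 0.372 ± 0.112 CPM for Hoxc10 and 0.101 ± 0.00478 CPM for Hoxd10. At 120 h they were at 25.2 ± 2.72, 37.4 ± 0.296 and 4.27 ± 0.707 CPM (SD, n = 2 each). In endoderm cultures the group 10 genes were at 53.3 ± 3.95 CPM for Hoxa10, 49 ± 4.29 CPM for Hoxc10 and 47.6 ± 4.42 CPM for Hoxd10 (SD, n = 3).

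The genes outside the Hox family whose levels followed the members most closely were noncoding RNAs of the Hox clusters. Likeness was the Pearson correlation of log2(CPM + 1) over the 10 group means among 13272 genes, and the 3 genes with the highest value were taken for each member. Hoxaas3, Hoxb5os, Hoxd3os1 and Haglr filled 20 of the 21 places, with Hoxb8 and Hoxaas3 the closest pair (0.9953) and Hoxc8 and Hoxb5os next (0.9861). The remaining place was Spg21, a protein-coding gene outside the clusters, for Hoxc9 (0.9333). The points are 10 means that share libraries, so these values are a description. In the differentiated Hox-/- groups the members, Hoxaas3, Hoxb5os and Hoxd3os1 all had few or no counts. That split by genotype raises the correlation of any such pair, so the ranking follows in part from the design.

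Noncoding RNAs of the clusters were also lower in Hox-/- cells. Of 16 listed, 2 could be tested in mES cells and both were lower. In endoderm cultures 10 of 11 were lower, and in Activin A gastruloids 6 of 8 at 96 h and 7 of 8 at 120 h. Of all genes tested, 10.8%, 23.1%, 16.7% and 25.5% were called lower in that order. Hottip, at the Hoxa13 end of the Hoxa cluster, was the RNA called higher in each of the 3 differentiated comparisons, and is named after its values were seen. It was 16-fold higher in Hox-/- endoderm cultures (217 against 11 counts), and at least 19.5-fold and at least 11.5-fold higher in Activin A gastruloids at 96 h and 120 h, where wt had 0 counts. With groups of 0 counts at their bound, the median log2 change was -6.95, -6.65, -3.22 and -7.64 in these 4 comparisons, beside 0.00, 0.00, 0.03 and -0.02 over all genes. Hoxaas3 had 3 counts against 1105 in endoderm cultures, a ratio of 445 with an interval of 152 to 2159. At 120 h it was at 0.356 ± 0.106 CPM in Hox-/- and 75.9 ± 0.837 CPM in wt Activin A gastruloids (SD, n = 2 each; log2 change -7.58, SE 0.182). Gm53, which lies in the Hoxb cluster beyond Hoxb9, was at 26.5 ± 1.81 CPM in wt mES cells and had 1 count in Hox-/- mES cells, a ratio of 674 with an interval of 121 to 26644. These RNAs share clusters and possibly reads with the Hox genes, since the strand setting is not given.

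Of 13 regulators of axial development, among them the Cdx genes that act upstream of the posterior Hox genes, several were higher in Hox-/- cultures. In endoderm cultures 8 were higher and 5 lower, in Activin A gastruloids 8 higher and 2 lower at 96 h and 7 higher and 2 lower at 120 h, and in mES cells 1 of 9 tested was higher and 3 lower. Of all genes tested, 23.1% were called higher and 23.1% lower in endoderm cultures, 22.2% and 16.7% at 96 h, 24.9% and 25.5% at 120 h, and 12.4% and 10.8% in mES cells. The median log2 changes of the list were 0.45, 0.35, 0.14 and -0.15 in that order, beside 0.00, 0.03, -0.02 and 0.00 over all genes. Cdx4 was at 29.2 ± 2.63 CPM in Hox-/- and 5.58 ± 1.12 CPM in wt endoderm cultures (SD, n = 3 each; log2 change 2.39, SE 0.122), and Cdx2 at 207 ± 10.7 and 98.8 ± 8 CPM (1.08, SE 0.0633). Cdx1 was at 579 ± 30.6 and 197 ± 18.2 CPM at 96 h and at 142 ± 6.12 and 12.1 ± 1.87 CPM at 120 h in Activin A gastruloids (SD, n = 2 each; log2 changes 1.61 and 3.66). Cyp26a1, which breaks down retinoic acid, was lower in Hox-/- at both times, at 24.3 ± 4.74 against 103 ± 3.43 CPM at 96 h and 35.3 ± 2.16 against 135 ± 1.44 CPM at 120 h (SD, n = 2 each). In mES cells Cdx2 was lower, at 0.434 ± 0.0199 against 2.52 ± 0.178 CPM.

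The cofactors that bind DNA with Hox proteins had median changes of 0.30 or less on the log2 scale between genotypes. Read beside the same shares of all genes, of 9 Pbx, Meis and Pknox genes 3 were higher and 1 lower of 8 tested in mES cells, 4 higher and 2 lower in endoderm cultures, 2 higher and 4 lower in Activin A gastruloids at 96 h, and 6 higher and 2 lower at 120 h. The median log2 changes were 0.03, 0.12, 0.02 and 0.30, beside 0.00, 0.00, 0.03 and -0.02 over all genes. Pknox2 was higher in all 4 comparisons, with log2 changes of 0.56, 1.01, 1.12 and 0.53. Meis2 was at 42.1 ± 3.44 CPM in Hox-/- and 19.7 ± 2.09 CPM in wt mES cells (SD, n = 2 each; 1.09, SE 0.0906), and at 64.5 ± 5.64 and 32.5 ± 2.09 CPM in endoderm cultures (SD, n = 3 each; 1.00, SE 0.0745).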

How the data were processed

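Groups, 10 in all, follow the labels of the 22 libraries. The deposited count tables give raw whole-number counts for Ensembl genes. FPKM values are the authors' own, with gene symbols and positions, and were joined to the counts by gene identifier. The submitters' processing notes name cutadapt 1.16, STAR 2.7.7a, Cufflinks 2.2.1 and mm10, without roles. The counting tool, annotation and strand setting are not given in the sources used here. Per the labels' protocols, poly(A) RNA went into stranded libraries.

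CPM is the count divided by the library total. The test was edgeR 4.0.16 (R 4.3.3): filterByExpr, TMM scaling, 1 coefficient per group, no replicate block, quasi-likelihood test and Benjamini-Hochberg adjustment over all genes. The mES and endoderm tables were fitted alone, the 4 groups of each gastruloid table together, and mES with endoderm counts joined for the comparison of cultures, in 13 contrasts. Libraries held 9.11 to 28.8 M counts. Alternatives were RLE size factors, library totals alone, no filter, DESeq2 1.42.0, the replicate number as a block, limma 3.58.1 on log2(FPKM + 1) and log2(FPKM + 0.1), only the 2 groups compared, and each library left out in turn. On simulated counts with 200 changed genes, edgeR recovered 98% to 99% of changes of 2-fold and 100% of those of 4-fold in the 4 comparisons simulated, and 5.24% to 7.87% of its calls were false. The changed genes were drawn only from genes above a minimum mean count. Recovery for member values that rest on few counts was therefore not measured.

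Named were every member, the neighbouring group 7 and 10 genes, genes overlapping or between members, the 3 closest non-Hox genes per member by Pearson correlation among genes of at least 5 CPM in a group, and up to 4 called genes by smallest p per pathway list and genotype comparison, of which some are left out. Members and lists were chosen with earlier results of these data known. RefSeq promoters of Hoxc8, Hoxb9 and Hoxc9 were not analysed here.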

Additional observations from a re-analysis of the deposited data

Results flagged for a closer look

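The difference between the treatments in wild-type gastruloids was not the same at 96 h and 120 h for any of the 7 genes, by edgeR's interaction contrast. The log2 difference between the Activin A against Chiron effects was 6.83 for Hoxc8, 4.55 for Hoxb9, 4.40 for Hoxb8, 3.52 for Hoxc9, 3.16 for Hoxd8, 3.02 for Hoxd9 and 2.84 for Hoxa9. The Hox-/- against wild-type effect in Activin A gastruloids also differed between the times for 5 genes, with log2 differences of -6.59 for Hoxc8, -6.63 for Hoxd8, -5.26 for Hoxc9, -4.94 for Hoxa9 and -2.65 for Hoxb9. Of these, Hoxd8, Hoxc9 and Hoxa9 rest on 0 to 2 counts in each Hox-/- group. Hox-/- counts of all 5 genes were low at both times, so these differences are not independent of the rise in wild-type gastruloids. No group had 4 or more libraries, so a search for single outlying libraries was not made.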

How the results depend on the processing

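Of 157 counts of called genes recomputed under the alternatives, 150 stayed within 1.5 times the reported count, and of 927 values of single genes 892 kept their direction and their side of the threshold. In mES cells 1 gene was called, but 3 of 7 without the filter on low counts (Hoxb9, Hoxd8 and Hoxd9) and 0 by limma on log2(FPKM + 0.1), where Hoxb9 had a log2 change of -4.46 and an adjusted p of 0.0518. Between 96 h and 120 h in Hox-/- Activin A gastruloids 2 genes were called, and 1 by limma with either pseudocount. Over fits that left out 1 library each, the genotype by time count of 5 ran from 2 to 5, with 2 without Hox-/- replicate 1 of 96 h (Hoxc8 and Hoxa9) or replicate 2 (Hoxc8 and Hoxb9), while limma on FPKM called all 7 with either pseudocount, and the count of 0 between Hox-/- endoderm and mES cells ran from 0 to 1, with Hoxb9 called without mES Hox-/- replicate 2. Values that changed sign were Hoxc9 between genotypes at 96 h (0.31 without wild-type replicate 2; range with 1 library left out -2.44 to 0.31), Hoxc8 over time in Hox-/- (0.14 without Hox-/- replicate 1 of 96 h and 0.05 without replicate 2 of 120 h; range -0.41 to 0.14), and the genotype by time difference of Hoxb8 (0.11 by DESeq2, 1.99 without Hox-/- replicate 2 of 96 h and 0.16 without replicate 2 of 120 h; range -1.30 to 1.99). None of these was called in the reported fit, and the cause was not tested. Library totals alone moved the median of all genes to 0.18 between endoderm and mES cells and to -0.13 between genotypes at 120 h; no member changed direction under them. With the replicate number as a block the counts were the same in all 13 contrasts, for example 7 in endoderm cultures and 5 at 96 h. Deviations of same-numbered libraries from their group means correlated at 0.106 or less. Such a value cannot show whether those libraries were made together, and the labels do not say. A fit of Hox-/- gastruloids on only the 2 groups compared gave no value, since no member passed its filter. Depth limits the Hox-/- values, where 0 counts allow up to 0.0603 to 0.135 CPM.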

Other observations

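Of 12 chromatin regulators known to act on Hox clusters (Polycomb and Trithorax-type genes), edgeR called 4 higher and 1 lower in Hox-/- mES cells, 3 higher and 3 lower in endoderm cultures, 3 higher and 0 lower in Activin A gastruloids at 96 h, and 6 higher and 3 lower at 120 h. Of all genes tested, 12.4% were called higher and 10.8% lower in mES cells, 23.1% each way in endoderm cultures, 22.2% and 16.7% at 96 h, and 24.9% and 25.5% at 120 h. The median log2 changes of the list were 0.07, -0.01, 0.07 and 0.09, beside 0.00, 0.00, 0.03 and -0.02 over all genes. Kdm6b, a demethylase of the repressive H3K27 mark, was higher in all 4 comparisons, with log2 changes of 0.35, 0.26, 0.29 and 0.36. Cbx7, a reader of that mark in Polycomb complexes, was at 6.46 ± 0.00882 CPM in Hox-/- and 31.1 ± 0.196 CPM in wild-type Activin A gastruloids at 120 h (SD, n = 2 each; log2 change -2.15, SE 0.12).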
